A study of Mus musculus and Rattus norvegicus with 24 samples.

Results

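The genes described are 10 transcription factors and cofactors of the heart: Gata4, Gata6, Nkx2-5, Tbx5, Tbx20, Irx4, Hand2, Mef2a, Mef2c and Hopx. Their levels in bulk hearts do not say which cells they come from. They were picked out of the tables by symbol, from a list drawn up with earlier results of these data known. All 10 were among the 54532 gene rows measured in mouse hearts, and all 10 passed the filter on low counts with 15535 genes in all. In rat cells 9 of them were among 17327 rows and all 9 passed the filter with 10571 genes. Rat Mef2c was not analysed here.

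RNA sequencing covered 18 mouse heart samples and 6 samples of NRVM (neonatal rat ventricular myocytes), cultured muscle cells taken from the ventricles of newborn rats. The hearts came from control mice (ctrl) or from mice with a conditional knockout of ATF4 (cKO), after sham surgery or after transverse aortic constriction (TAC) lasting 3 or 7 days, in which narrowing of the aortic arch raises the pressure the left ventricle must work against. Each of these 6 groups held 3 libraries. The rat cells, all plated with serum and bromodeoxyuridine and later kept serum-free, were infected with a GFP adenovirus (adGFP, 3 libraries) or an adenovirus for ATF4 (adATF4, 3 libraries). The Cre line of the knockout, the age and sex of the mice, and whether the libraries of a group are separate animals or cultures, are not stated by the labels. The p-values therefore measure the spread between these libraries, part of which may be technical.

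The heart is built under a small set of transcription factors that bind together at shared enhancers. GATA4 and GATA6 are zinc-finger factors, NKX2-5 and IRX4 are homeodomain factors, TBX5 and TBX20 are T-box factors, HAND2 is a basic helix-loop-helix factor, MEF2A and MEF2C are MADS-box factors, and HOPX is an atypical homeodomain protein that does not bind DNA itself and restrains serum response factor. In the adult heart these genes remain active and help to keep the contractile, calcium-handling and ion channel genes of cardiomyocytes switched on. ATF4 is a stress-induced bZIP factor that turns on genes for amino acid synthesis and uptake and for redox defence.

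Mouse libraries held 15106975 to 18112798 counts, and the members were read with 313 to 4372 counts per library. Levels in mouse are given as CPM, the share of a library's counts scaled to a common total after TMM. A gene is said to be called when its adjusted p, from edgeR's quasi-likelihood test for counts or from limma for the rat values, is under 0.05 over all genes tested, and rose, fell, higher and lower without further values are used of called genes. Fold changes are on the log2 scale with their standard error. Replicate 3 of ctrl TAC 3 d and replicate 2 of both cKO TAC groups stood apart from the rest on the first 2 principal components, which held 39.6% and 11.4% of the variance, and member results that rest on them are given with and without them. Calls on partners, targets, relatives and cell type markers are given with all libraries only. Summed cardiomyocyte markers made up 47463 to 87201 CPM in every heart, and all 10 of these markers passed the filter.

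RefSeq promoter windows were at hand for 7 of the 10 members, with 10 transcription starts among them. Windows are shown for the genes with the widest swings: Irx4, the member with the largest response in rat cells, and Tbx20 and Hopx, which moved in opposite directions in hearts. Each runs from base 250 to base 31 before the RefSeq start, 5′ to 3′ on the gene's strand, in GRCm38.p6. Capitals mark GATA, CCAAT and GGGCGG on either strand, and 4 more motifs were searched on both strands without capitals: the ATF4 composite element TGATGNAAN, the T-box motif AGGTGT, the NKX2 motif AAGTG and the E-box CANNTG.
Irx4, chr13:73260247-73260466, plus strand: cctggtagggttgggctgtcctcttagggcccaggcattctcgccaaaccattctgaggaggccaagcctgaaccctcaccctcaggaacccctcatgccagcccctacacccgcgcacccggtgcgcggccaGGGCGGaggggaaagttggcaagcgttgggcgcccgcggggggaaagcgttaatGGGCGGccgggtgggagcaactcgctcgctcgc
Tbx20, chr9:24774334-24774553, minus strand: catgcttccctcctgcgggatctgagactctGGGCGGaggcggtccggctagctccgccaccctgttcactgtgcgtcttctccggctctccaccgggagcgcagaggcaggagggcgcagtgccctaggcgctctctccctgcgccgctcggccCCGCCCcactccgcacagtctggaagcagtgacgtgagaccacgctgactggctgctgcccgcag
Hopx, upstream start, chr5:77115154-77115373, minus strand: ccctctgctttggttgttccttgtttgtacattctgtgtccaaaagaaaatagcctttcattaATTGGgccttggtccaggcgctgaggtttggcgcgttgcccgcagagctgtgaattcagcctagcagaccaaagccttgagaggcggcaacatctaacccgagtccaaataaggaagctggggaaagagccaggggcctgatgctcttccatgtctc
Hopx, downstream start, chr5:77095298-77095517, minus strand: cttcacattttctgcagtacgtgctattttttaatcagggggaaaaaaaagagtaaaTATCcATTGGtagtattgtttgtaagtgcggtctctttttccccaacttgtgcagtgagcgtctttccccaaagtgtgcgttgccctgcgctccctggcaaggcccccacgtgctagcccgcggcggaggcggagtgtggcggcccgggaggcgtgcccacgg
The Irx4 and Tbx20 windows were GC-rich, at 67.7% and 69.5% G or C against a median of 51.8% over 32841 windows of all genes, and each held GGGCGG in 2 places. The Hopx windows were 51.8% and 55.0% G or C and each held CCAAT on the reverse strand, with 1 GATA in the downstream window. None of the 10 member windows held the ATF4 composite element, which 3.02% of all windows held. GATA was in 6 of the 10 member windows and in 50.6% of all windows, CCAAT in 5 of 10 and in 31.0%, and GGGCGG in 3 of 10 and in 28.5%. AGGTGT was in 1 of 10 and in 10.7%, AAGTG in 5 of 10 and in 36.8%, and CANNTG in 5 of 10 and in 62.1%. The runs in capitals did not overlap each other in the windows shown, and a match is a run of letters, not a measured site.

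Atf4 itself (chr15:80255184-80257541, GRCm38) checked the labels. It stood at 66.2, 68.8 and 34.3 CPM in the ctrl sham libraries and at 21.0, 26.3 and 23.2 CPM in the cKO sham libraries. At TAC 3 d it was 80.3 to 91.0 CPM in ctrl and 24.8 to 27.1 CPM in cKO, and at TAC 7 d 70.3 to 80.0 CPM and 27.0 to 31.3 CPM. Every ctrl library was above every cKO library, with ctrl sham replicate 3 closest to them. Over the 3 conditions Atf4 was lower in cKO by a log2 difference of -1.46 (adjusted p = 2.8e-06).

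Levels of different members were compared on the authors' deposited FPKM, which divides by length. Hopx was highest, at a mean of 92.4 ± 37.3 FPKM (SD over 18 libraries), above 97.3% of the genes tested. Nkx2-5 followed at 57.9 ± 9.13 FPKM and Gata4 at 40.9 ± 6.18 FPKM. Hand2 stood at 20.4 ± 5.49, Irx4 at 17.5 ± 1.74, Gata6 at 12.0 ± 1.88, Tbx20 at 11.9 ± 3.49 and Mef2a at 11.1 ± 1.52 FPKM. Tbx5, at 5.60 ± 1.36 FPKM, and Mef2c, at 4.52 ± 0.70 FPKM, were lowest. Neighbours in this order overlapped in their range over the 18 libraries, except that every Mef2a value (8.31 to 14.3 FPKM) was above every Tbx5 value (3.55 to 7.50 FPKM). The order itself shifted with condition: Hopx had the highest mean of the members in 4 of the 6 groups, and was level with Nkx2-5 in ctrl TAC 3 d (both 59.5 FPKM) and in cKO TAC 7 d hearts (50.3 and 50.5 FPKM), while Tbx20 moved from the eighth place in ctrl sham hearts to the sixth in ctrl TAC 3 d hearts.

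**Figure D1:**
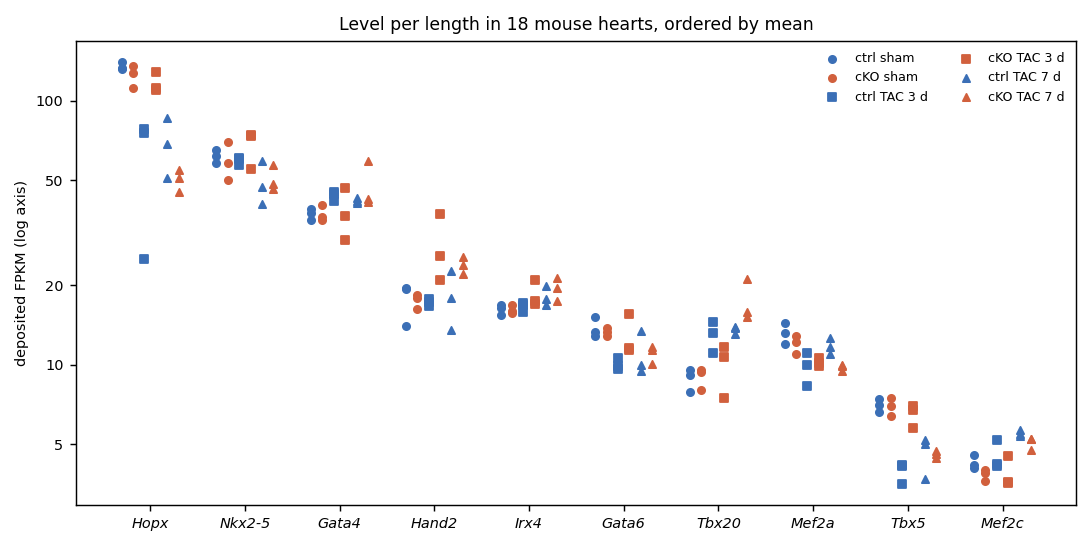
Deposited FPKM (log axis) of the 10 members in 18 mouse hearts, ordered by their mean; each point is a library, colour gives the genotype and shape the surgery. Hopx and Tbx20 spread widest relative to their mean, and the ctrl TAC 3 d point of Hopx at 25.1 FPKM is the lowest of its 18.

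In sham hearts 0 of the 10 members were called between cKO and ctrl, against 0.0193% of all genes tested (0.00644% higher and 0.0129% lower) in the same comparison. At an unadjusted p under 0.05 the same test gave 565 of 15535 genes. The 10 log2 differences between cKO and ctrl ran from -0.15 (Mef2c) to 0.03 (Tbx20). At TAC 3 d 3 of 10 members were called, all higher in cKO, against 17.1% of all genes tested (7.73% higher and 9.36% lower): Tbx5, Hopx and Hand2. With plain library sizes in place of TMM 4 members were called, Tbx5 and Hopx higher and Tbx20 and Mef2c lower, and of all genes 544 were higher and 2903 lower. Fitted on only the 6 libraries compared, 0 of 10 members and 114 of 14660 genes were called, with adjusted p of 0.0587 for Tbx5, 0.132 for Hand2 and 0.199 for Hopx. In bulk tissue, fewer cells of a type and less RNA per cell cannot be told apart. At TAC 7 d 0 of 10 were called, against 0.257% of all genes, and averaged over the 3 conditions 0 of 10, against 0.766%. The median log2 difference of the members was -0.02 in sham, 0.18 at 3 d and 0.04 at 7 d, beside 0.00, 0.02 and 0.01 for all genes tested.

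**Figure D2:**
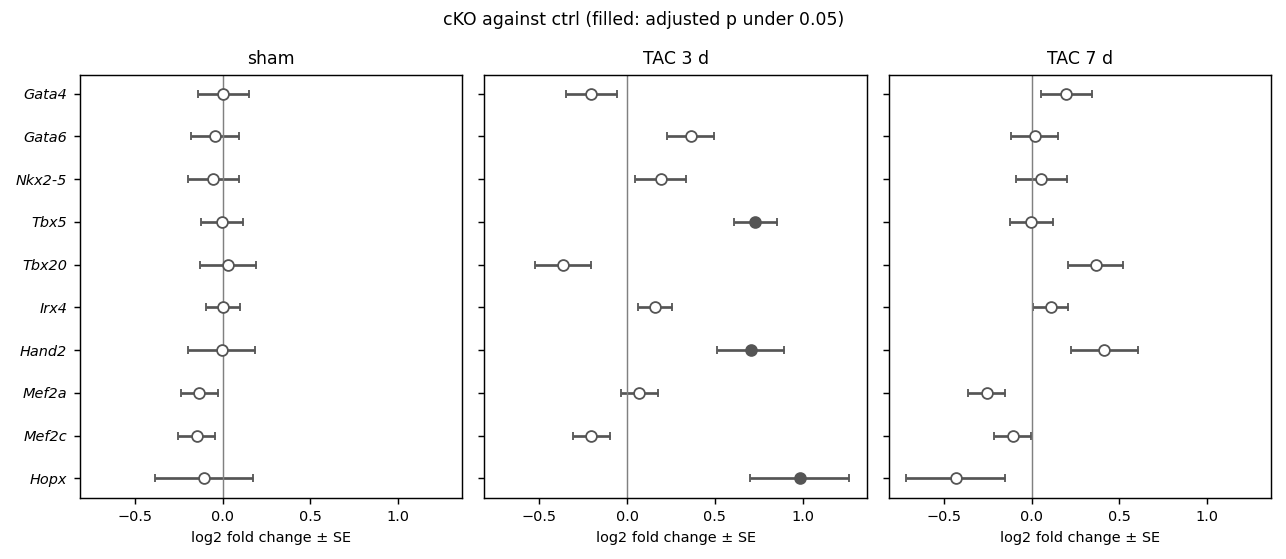
Log2 fold change of cKO against ctrl (± SE) for each member in sham, TAC 3 d and TAC 7 d hearts; filled points had an adjusted p under 0.05. Tbx5 (0.73), Hand2 (0.70) and Hopx (0.98) at TAC 3 d are the only filled points.

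Banding was then compared with sham surgery within each genotype. After 3 days in ctrl, 5 of 10 members were called, against 27.2% of all genes tested (14.8% higher and 12.4% lower): Tbx5, Hopx, Gata6 and Mef2a fell and Tbx20 rose. With plain library sizes 4 were called, 2 lower (Tbx5, Hopx) and 2 higher (Tbx20, Gata4), with 4086 of all genes higher and 870 lower. After 7 days in ctrl, 4 of 10 were called, against 7.29% of all genes (4.26% higher and 3.03% lower): Tbx5 and Hopx fell, and Tbx20 and Mef2c rose. In cKO hearts 0 of 10 were called after 3 days, in a comparison with 0% of genes called (0 of 15535 by edgeR, 32 by DESeq2 and 1311 at an unadjusted p under 0.05). After 7 days in cKO the same 4 genes as in ctrl at 7 d, Tbx5, Hopx, Tbx20 and Mef2c, were called in the same directions, against 21.8% of all genes (11.4% higher and 10.4% lower). With plain library sizes 7 were called there, the further 3 (Gata4, Irx4 and Hand2) higher, with 2358 of all genes higher and 937 lower. The comparisons of TAC with sham within a genotype share their sham libraries, and they share their TAC libraries with the genotype comparisons.

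**Figure D3:**
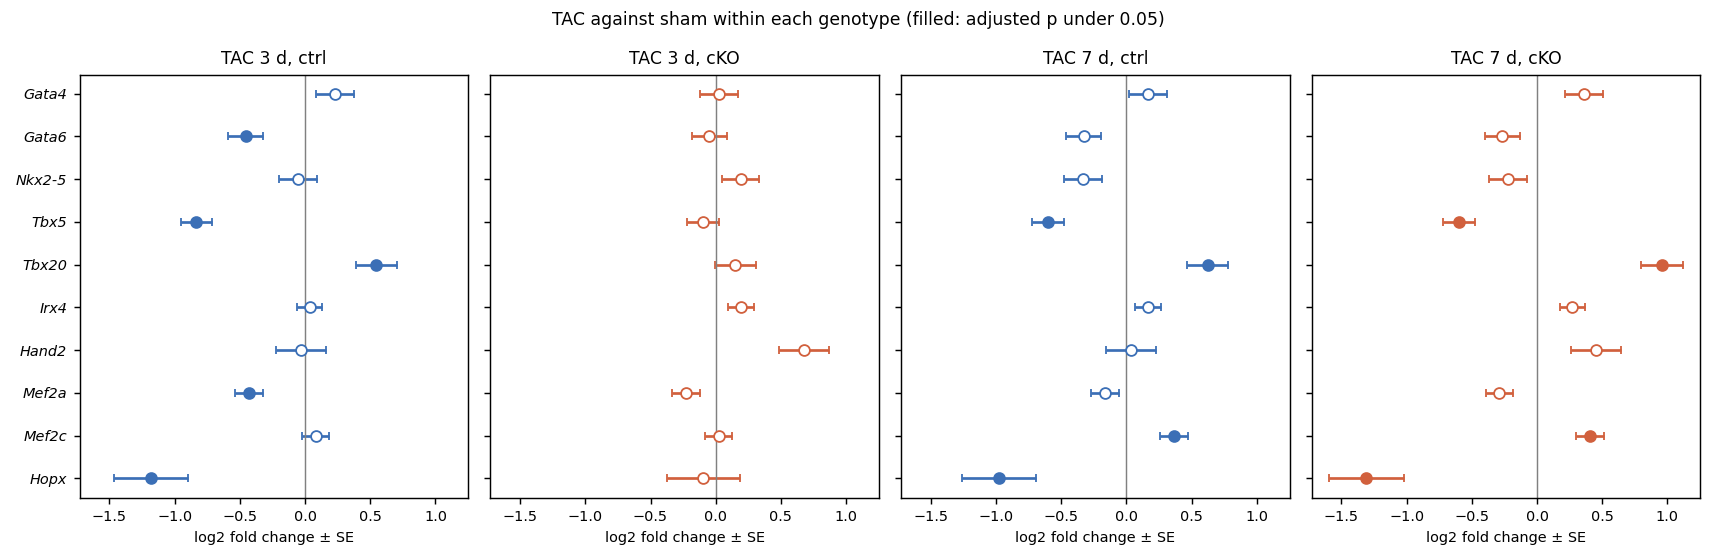
Log2 fold change of TAC against sham (± SE) for each member, by genotype and day; filled points had an adjusted p under 0.05. Tbx5 and Hopx lie left of 0 and Tbx20 right of 0 as filled points in 3 of the 4 panels, and the cKO TAC 3 d panel has no filled point.

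Markers of some other cells moved with the TAC groups. Of 6 endothelial markers 0 were called in any comparison of TAC with sham, or between genotypes at TAC 3 d. Of 6 smooth muscle and pericyte markers 2 were lower in ctrl at TAC 3 d against sham. At 7 d against sham 0 of these 6 were called in either genotype. Summed fibroblast markers were 2544 to 12333 CPM in ctrl TAC 3 d hearts, 1279 to 1451 CPM in cKO TAC 3 d hearts and 845 to 956 CPM in ctrl sham hearts. Of the 8 fibroblast markers, 5 were higher and 1 lower in ctrl at TAC 3 d against sham, and 4 were lower and 1 higher in cKO than in ctrl at TAC 3 d. Leukocyte markers were 340.4 to 835 CPM in ctrl and 258 to 372 CPM in cKO at TAC 3 d, with 5 of 7 tested markers lower in cKO, and 168 to 203 CPM in ctrl sham hearts. Cell cycle genes summed to 70.1 to 142 CPM in ctrl and 3.68 to 17.8 CPM in cKO hearts at 3 d. Cardiomyocyte markers were 47463 to 75780 CPM in ctrl and 75430 to 85236 CPM in cKO hearts at 3 d, with 0 of 10 called between genotypes. In ctrl sham hearts they were 79107 to 87201 CPM, above every ctrl TAC 3 d heart. In ctrl at TAC 3 d against sham 1 of 10 was lower, with a median log2 difference of -0.40 over the list. At TAC 7 d in cKO fibroblast markers were 2242 to 4129 CPM against 785 to 1126 CPM in cKO sham hearts, with 4 of 8 higher, and 7 of 7 leukocyte and 5 of 5 cell cycle markers were higher. Cardiomyocyte markers there summed to 60269 to 70484 CPM, below the 73512 to 81031 CPM of cKO sham, with 1 of 10 lower. At TAC 7 d in ctrl 1 of 8 fibroblast, 1 of 7 leukocyte and 5 of 5 cell cycle markers were higher and 0 of 10 cardiomyocyte markers were called. The mitochondrial share of counts was 21.8% to 23.0% in sham hearts, 10.6% in ctrl TAC 3 d replicate 3 and 14.5% in cKO TAC 7 d replicate 2. No marker on the fibroblast, leukocyte or cardiomyocyte list was at 0 throughout any group. The part of these shifts in the members' differences was not tested.

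Tbx5 (chr5:119832668-119885219, GRCm38) is the T-box factor that patterns the left ventricle and the conduction system. Its ctrl levels were 34.8, 31.0 and 33.1 CPM after sham, 19.4, 19.4 and 16.7 CPM at TAC 3 d and 17.4, 23.4 and 24.4 CPM at TAC 7 d. Its cKO levels were 30.1, 33.0 and 35.4 CPM after sham, 33.0, 31.7 and 27.3 CPM at TAC 3 d and 22.4, 20.9 and 21.7 CPM at TAC 7 d. All ctrl TAC libraries were below all sham libraries, whereas the cKO libraries overlapped sham at 3 days and were below it at 7 days. In ctrl it fell by 0.83 ± 0.12 at 3 d (adjusted p = 0.000378) and by 0.60 ± 0.12 at 7 d (adjusted p = 0.0110). The call at 7 d was lost without replicate 1 of ctrl sham (adjusted p = 0.0666) or of ctrl TAC 7 d (adjusted p = 0.0556). In cKO it fell by 0.60 ± 0.12 at 7 d (adjusted p = 0.00458), with -0.10 ± 0.12 at 3 d (adjusted p = 0.866). At TAC 3 d it was 0.73 ± 0.12 higher in cKO than in ctrl (adjusted p = 0.00200), the 3 cKO libraries lying above the 3 ctrl libraries. Without the 3 libraries that stood apart that difference was 0.61 (adjusted p = 0.0294). The test of the genotype by TAC interaction at 3 d gave 0.73 ± 0.17 and missed the threshold (adjusted p = 0.0540), in a comparison with 0.669% of genes called.

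Tbx20 (chr9:24718138-24774303), a T-box factor required to maintain adult cardiomyocyte function, rose with banding. It stood at 94.6, 109.5 and 115 CPM in ctrl sham hearts, 174, 134 and 159 CPM at TAC 3 d and 169, 157 and 166 CPM at TAC 7 d. In cKO hearts it stood at 116, 113 and 97.2 CPM after sham, 90.4, 141 and 130.4 CPM at 3 d and 185, 255 and 193 CPM at 7 d. The ctrl TAC libraries were all above sham on both days, and the cKO libraries straddled sham at 3 d and were all above it at 7 d. It rose by 0.55 ± 0.16 (adjusted p = 0.0183) and 0.62 ± 0.16 (adjusted p = 0.0275) in ctrl and by 0.96 ± 0.16 in cKO at 7 d (adjusted p = 0.00186). The ctrl call at 7 d was lost when any 1 of the 6 ctrl libraries compared was left out (adjusted p up to 0.134), and that at 3 d without replicate 1 of ctrl sham (0.0815) or of ctrl TAC 3 d (0.0629). The highest value, 255 CPM, came from cKO TAC 7 d replicate 2, and without the 3 libraries that stood apart the rise in cKO was 0.79 (adjusted p = 0.00150). Between genotypes it was not called on either day, at -0.37 ± 0.16 at 3 d (adjusted p = 0.115) and 0.37 ± 0.16 at 7 d (adjusted p = 0.253).

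Hopx (chr5:77086988-77115121) had the largest swings of the set. Its ctrl levels were 202, 213 and 201 CPM after sham, 117, 115 and 38.3 CPM at TAC 3 d and 77.8, 104 and 131 CPM at TAC 7 d. Its cKO levels were 195, 207 and 171 CPM after sham, 196, 168 and 172 CPM at TAC 3 d and 78.4, 69.0 and 84.1 CPM at TAC 7 d. The cKO libraries overlapped sham at 3 d and were below every sham library at 7 d, while all ctrl TAC libraries were below sham. In ctrl Hopx fell by 1.19 ± 0.28 at 3 d (adjusted p = 0.00649) and by 0.98 ± 0.28 at 7 d (adjusted p = 0.0456), and in cKO by 1.31 ± 0.28 at 7 d (adjusted p = 0.00648). The ctrl call at 3 d was lost when only the groups compared were fitted (adjusted p = 0.0692). The ctrl call at 7 d was lost with the replicate block (adjusted p = 0.0652) and without any 1 of 5 of the 6 ctrl libraries compared, all but ctrl TAC 7 d replicate 3 (adjusted p up to 0.192). At TAC 3 d it was 0.98 ± 0.28 higher in cKO than in ctrl (adjusted p = 0.0262), a call lost without replicate 1 (0.0712) or 2 (0.0634) of cKO TAC 3 d. The lowest value, 38.3 CPM, was that of ctrl TAC 3 d replicate 3. Without the 3 libraries that stood apart the genotype difference at 3 d was 0.63 (adjusted p = 0.0423) and the fall in ctrl -0.80 (adjusted p = 0.00229). The authors' deposited table gives a log2 fold change of 0.97 for cKO against ctrl at TAC 3 d with an adjusted p of 0.0849, on the other side of the threshold from the edgeR value.

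In ctrl hearts none of the members differed between 7 and 3 days of banding by the called threshold (0 of 10 by edgeR, against 14.8% of all genes, 6.95% higher and 7.81% lower). Of the members Mef2a and Mef2c had an unadjusted p under 0.05. In cKO hearts 4 of 10 were called, against 19.5% of all genes (9.26% higher and 10.3% lower): Tbx5 fell by 0.50 ± 0.12 and Hopx by 1.21 ± 0.28 between day 3 and day 7, and Tbx20 rose by 0.81 ± 0.16 and Mef2c by 0.38 ± 0.11. Without the 3 libraries that stood apart 2 were called, Tbx20 and Hopx, with 2138 of 15703 genes. The change of the genotype difference between the days, a contrast added after the data were seen, was called for 3 of 10 members, against 21.0% of all genes: Tbx5, Tbx20 and Hopx.

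**Figure D4:**
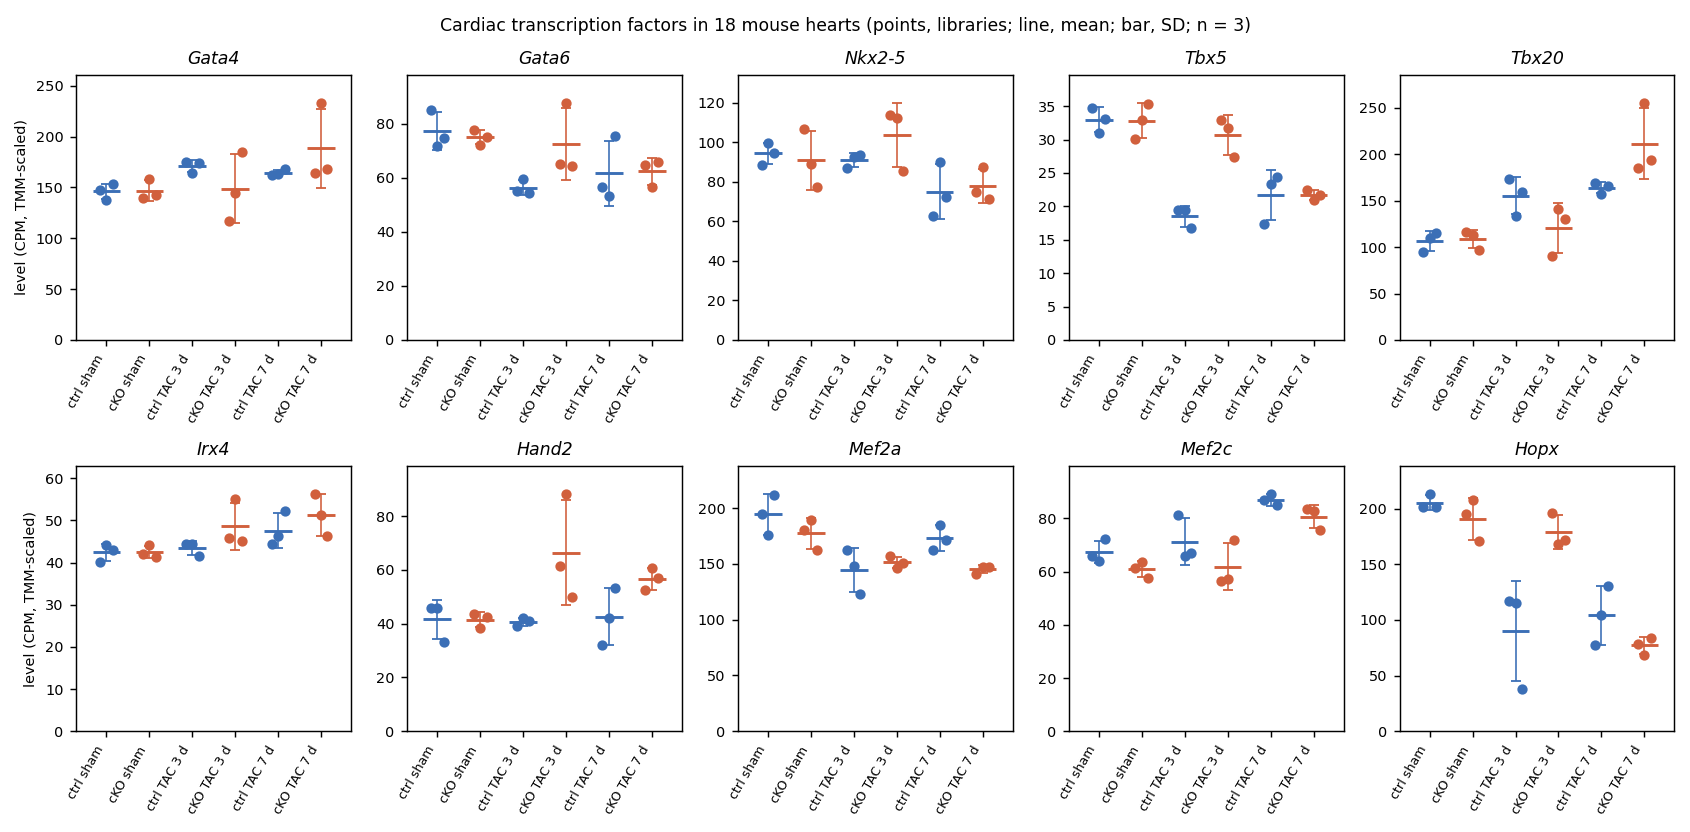
CPM of each member in the 18 hearts by group; points are libraries, lines the mean and bars the SD, n = 3. In Tbx5 and Hopx the cKO TAC 3 d points lie with the sham points and above the ctrl TAC 3 d points, and all TAC 7 d points lie below sham. In Tbx20 all TAC points lie above sham except in cKO TAC 3 d, which spreads from 90.4 to 141 CPM.

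Of the GATA factors, Gata6 (chr18:11052508-11085635) was called in 1 mouse comparison and Gata4 (chr14:63198922-63271692) in none. Gata6 was 85.3, 72.0 and 74.8 CPM in ctrl sham hearts and 55.2, 59.7 and 54.3 CPM at TAC 3 d, where all 3 libraries lay below sham. It fell by 0.46 ± 0.13 (adjusted p = 0.0203), a call lost with plain library sizes (-0.23, adjusted p = 0.149) and without replicate 1 of ctrl sham or replicate 1 or 3 of ctrl TAC 3 d (adjusted p up to 0.0865). The other group levels of Gata6 ranged from 53.2 to 87.8 CPM, and at TAC 3 d the cKO libraries (64.6 to 87.8 CPM) lay above the ctrl libraries with a difference of 0.36 ± 0.13 that was not called (adjusted p = 0.0727). Gata4, the factor that drives hypertrophic gene expression with NFAT and serum response factor, stood at 138 to 153 CPM in ctrl sham hearts and at 165 to 175 CPM at TAC 3 d. These groups did not overlap, yet the difference of 0.23 ± 0.15 was not called (adjusted p = 0.256). Its cKO libraries spread more, from 117 to 185 CPM at 3 d and from 164 to 233 CPM at 7 d.

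The MEF2 factors, which answer calcium signals once class II deacetylases release them, were called in different comparisons. Mef2a (chr7:67231163-67372858) was 195, 176 and 212 CPM in ctrl sham hearts and 162, 148 and 123 CPM at TAC 3 d, all lower, and fell by 0.43 ± 0.11 (adjusted p = 0.00768). This call was lost with plain library sizes (-0.21, adjusted p = 0.134) and when only the groups compared were fitted. At 7 d it was 163 to 185 CPM in ctrl (-0.17 ± 0.11 against sham, adjusted p = 0.357) and 141 to 147 CPM in cKO (-0.29 ± 0.11, adjusted p = 0.0599). Mef2c (chr13:83504034-83667080) was 66.0, 64.2 and 72.2 CPM in ctrl sham hearts and 86.9, 89.1 and 84.9 CPM at TAC 7 d, all higher. It rose by 0.37 ± 0.10 in ctrl at 7 d (adjusted p = 0.0448) and by 0.41 ± 0.11 in cKO (adjusted p = 0.0143), where it went from 57.7 to 63.5 CPM after sham to 75.8 to 83.4 CPM. The ctrl call sat close to the threshold and was lost when any 1 of the 6 ctrl libraries compared was left out (adjusted p up to 0.156). The cKO call was lost without cKO sham replicate 3 (adjusted p = 0.0616) or cKO TAC 7 d replicate 2 (adjusted p = 0.0601).

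Hand2 (chr8:57320983-57324633), known for building the right ventricle, was called in 1 mouse comparison. It stood at 39.2, 42.1 and 41.0 CPM in ctrl and at 61.4, 88.2 and 49.9 CPM in cKO hearts at TAC 3 d, every cKO library above every ctrl library, with a difference of 0.70 ± 0.19 (adjusted p = 0.0198). The highest value belonged to cKO TAC 3 d replicate 2, and without the 3 libraries that stood apart the difference was 0.43 and not called (adjusted p = 0.232). It was not called either with plain library sizes (adjusted p = 0.0604) or without replicate 1 (0.0634) or 3 (0.0713) of ctrl TAC 3 d. The call was also lost without cKO TAC 3 d replicate 2 alone. After sham Hand2 was 33.2 to 46.0 CPM in ctrl and 38.4 to 43.5 CPM in cKO. In cKO at TAC 3 d all libraries were above sham, by 0.68 ± 0.19, which was not called (adjusted p = 0.394). At TAC 7 d Hand2 was 52.6 to 60.8 CPM in cKO and 32.2 to 53.5 CPM in ctrl (0.41 ± 0.19, adjusted p = 0.277). Most of Hand2, from 57320983 to 57324233, is shared with AV026068, a non-coding gene on the opposite strand that drew 18919 counts over the 18 libraries against 14346 for Hand2. The strand setting of the counting is not given in the sources used here. Without strand, reads from places where exons of both genes overlap cannot be told apart. The overlap was taken from gene starts and ends, and exons were not compared. AV026068 was also higher in cKO at TAC 3 d, by 0.85 ± 0.16 (adjusted p = 0.00359), at 76.8 to 110.0 CPM against 38.5 to 56.0 CPM in ctrl. The 2 genes parted elsewhere. In ctrl at TAC 3 d against sham AV026068 fell by 0.53 ± 0.16 (adjusted p = 0.0232), with Hand2 at -0.03 ± 0.19 (0.924). In cKO between the days AV026068 fell by 0.66 ± 0.16 (adjusted p = 0.0122), with Hand2 at -0.23 ± 0.19 (0.417). Smaller overlaps on the opposite strand were those of 1010001N08Rik with Gata6 (only 11052508 to 11052567), of Lysmd4 with Mef2a, and of Hopxos with Hopx. The counts of each neighbour over its whole length were 12.8%, 11.0% and 0.246% of those of the member. In ctrl at TAC 3 d against sham, 1010001N08Rik fell by 0.87 ± 0.25 (adjusted p = 0.0183) and Lysmd4 by 0.76 ± 0.15 (adjusted p = 0.00239).

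Nkx2-5 (chr17:26838664-26841565), the earliest homeodomain factor of the heart, and Irx4 (chr13:73260479-73269608), which sets ventricular identity by repressing atrial genes, were not called in any mouse comparison. Nkx2-5 ranged from 62.6 to 114 CPM over the 18 hearts, with group means from 75.1 ± 14.1 CPM in ctrl TAC 7 d to 104 ± 16.1 CPM in cKO TAC 3 d hearts (SD). Its closest approach was the step from 3 to 7 days in cKO hearts, -0.41 ± 0.15 (adjusted p = 0.0551). That step was called by DESeq2 (adjusted p = 0.0396). In edgeR it was called with no filter on low counts (0.0385), with the replicate block (0.0467) and without cKO TAC 3 d replicate 3 (0.0217). Irx4 had the smallest SD relative to its mean FPKM of the set, and stood at 40.2 to 56.2 CPM over 18 libraries. In cKO it was 41.4 to 44.1 CPM after sham and 46.3 to 56.2 CPM at TAC 7 d. The difference was 0.27 ± 0.10 (adjusted p = 0.0562) although the groups did not overlap. It was called with plain library sizes (adjusted p = 0.0115) and without cKO TAC 7 d replicate 3 (adjusted p = 0.0456).

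Partners and targets of these factors gave the following counts, none of them a test of the lists. Between cKO and ctrl at TAC 3 d 17.1% of all genes were called, 7.73% higher and 9.36% lower. Beside this 1 of 20 cofactors and partners was called, Klf15, a Krüppel-like repressor of hypertrophy, higher by 1.74 ± 0.33 (adjusted p = 0.00346). Among 7 deacetylases and MEF2 repressors Hdac4 (0.55 ± 0.17) and Hdac3 (0.28 ± 0.09) were higher in cKO. Of 20 target genes 2 were higher, Corin (0.81 ± 0.15), the protease that activates natriuretic peptide, and Pln (0.85 ± 0.25), phospholamban. Of 9 family relatives 1 was lower, the epicardial T-box gene Tbx18 (-1.08 ± 0.35). Its groups overlapped, at 4.25 to 11.6 CPM in ctrl and 2.74 to 4.44 CPM in cKO. The median log2 difference was 0.21 for the cofactors, 0.11 for the deacetylases and repressors, 0.51 for the targets and 0.05 for the relatives, beside 0.02 for all genes tested. In sham hearts 0 genes of these lists were called, against 0.0193% of all genes. At TAC 7 d, where 0.257% of all genes were called, the 1 call was Nppa, atrial natriuretic peptide, higher in cKO by 3.11 ± 0.60 (adjusted p = 0.0435).

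After banding for 3 days in ctrl hearts, where 27.2% of all genes were called and 12.4% were lower, 6 of 20 cofactors fell and 0 rose, among them Klf15 (-1.86 ± 0.33), Hey2 (-1.01 ± 0.22) and Prdm16 (-0.69 ± 0.17). Of the deacetylases and repressors 4 of 7 fell: Hdac5 (-0.48 ± 0.08), Hdac4 (-0.73 ± 0.17), Hdac3 (-0.31 ± 0.09) and Hdac9 (-0.42 ± 0.15). Of 20 targets 7 fell and 2 rose. The falls included Adra1a (-1.65 ± 0.27), the alpha-1A adrenergic receptor, and Corin (-0.78 ± 0.15), and the rises were the natriuretic peptides Nppa (3.68 ± 0.62) and Nppb (2.16 ± 0.46). Of 9 relatives only Mef2d was called (-0.33 ± 0.10). In cKO hearts at the same time 0 genes of these lists were called, as for all genes.

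At 7 days against sham 7.29% of all genes were called in ctrl (4.26% higher and 3.03% lower). In cKO 21.8% were called (11.4% higher and 10.4% lower). Of the cofactors 2 rose in each genotype, Tead1 and Myocd in both. Tead1, the effector of the Hippo pathway, rose by 0.67 ± 0.14 in ctrl and 0.70 ± 0.14 in cKO, and Myocd, the serum response factor coactivator, by 0.75 ± 0.16 and 0.62 ± 0.16. No other of the 20 cofactors was called in either. Hdac5 fell by 0.49 ± 0.08 in ctrl and by 0.43 ± 0.08 in cKO, and Cabin1, a calcineurin and MEF2 inhibitor, rose by 0.38 ± 0.11 and 0.34 ± 0.11. Irx5 (-0.74 ± 0.17) and Irx3 (-0.65 ± 0.17) fell in ctrl, and Mef2d (-0.32 ± 0.10) fell in cKO. Of 20 targets 3 rose in ctrl, among them Slc8a1 and Nppb, and 5 rose and 4 fell in cKO, where Slc8a1 (1.50 ± 0.26), Myh7 (3.23 ± 0.61) and Nppa (2.92 ± 0.60) had the smallest adjusted p. Between genotypes these differences at 7 d were not called, except Nppa.

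In the rat myocytes ATF4 from the virus was followed by lower levels of most of the set. Atf4 stood at 247 to 309 FPKM in the adGFP libraries and at 2473 to 2728 FPKM in the adATF4 libraries. Of the 9 members measured 7 were called, 6 lower and 1 higher, in a comparison where 50.6% of all genes tested were called (24.2% higher and 26.4% lower), so that the share of members called says little by itself. Their median log2 difference was -0.50, beside -0.04 for all genes. Rat fold changes are differences of log2(FPKM + 1), on which low genes change less than on plain FPKM, and no read totals come with the rat values used here.

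Markers of some other cells moved with the virus too. Smooth muscle and pericyte markers summed to 1041 to 1181 FPKM in adGFP and 1037 to 1238 FPKM in adATF4 libraries. Of these 6 markers 3 were lower and 3 not called. Of 5 endothelial markers tested 4 were lower, and of 3 epicardial markers 1 was lower. Summed fibroblast markers went from 1436 to 1567 FPKM down to 509 to 545 FPKM, and all 8 were lower. Leukocyte markers went from 143 to 163 FPKM down to 78.0 to 90.4 FPKM, with 4 of 5 tested markers lower and Cx3cr1 listed at 0 in all 6 libraries. Cardiomyocyte markers summed to 23187 to 25318 FPKM in adGFP and 22113 to 22217 FPKM in adATF4 libraries, with 4 of 9 lower and 1 higher. The part of these shifts in the members' falls was not tested.

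Irx4 fell furthest, from 43.2, 42.1 and 40.5 FPKM with adGFP to 4.51, 7.03 and 4.77 FPKM with adATF4. The groups lay far apart, the mean with adATF4 being 13.0% of that with adGFP, and the fall of 2.76 ± 0.16 (adjusted p = 4.87e-07) was the fifth lowest log2 change of the 10571 genes tested. The relatives Irx3 and Irx5 fell with it: Irx3 from 13.5 to 17.2 FPKM down to 2.30 to 4.02 FPKM (-2.08 ± 0.19), and Irx5 from 6.90 to 8.07 FPKM down to 1.37 to 2.29 FPKM (-1.62 ± 0.18). The other Iroquois genes did not pass the filter on low values. In the mouse hearts Irx4 was not called in any comparison of the main fit. Its ctrl and cKO ranges overlapped after sham and at 7 d, and at 3 d the cKO libraries (45.1 to 55.0 CPM) lay above the ctrl libraries (41.7 to 44.4 CPM).

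Gata6 fell from 57.5, 55.0 and 51.3 FPKM to 23.1, 24.4 and 21.8 FPKM (-1.21 ± 0.10, adjusted p = 6.76e-06), with a wide gap between the groups. Tbx20 fell from 89.4, 108 and 94.6 FPKM to 46.6, 61.4 and 52.1 FPKM (-0.86 ± 0.12, adjusted p = 0.000205), and Tbx5 from 19.0, 23.5 and 18.5 FPKM to 8.52, 13.1 and 12.9 FPKM (-0.79 ± 0.18, adjusted p = 0.00386). Neither group of libraries overlapped the other for these genes. Both T-box factors fell here, and in banded ctrl hearts Tbx5 fell and Tbx20 rose.

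Hopx was the 1 member that rose, from 20.2, 12.9 and 16.7 FPKM to 24.0, 25.0 and 26.0 FPKM (0.58 ± 0.15, adjusted p = 0.00946), again without overlap. Gata4 fell by a smaller amount, from 46.4, 50.2 and 52.2 FPKM to 38.7, 43.6 and 36.8 FPKM (-0.32 ± 0.10, adjusted p = 0.0262). Mef2a fell from 64.7, 88.8 and 107 FPKM to 60.5, 54.7 and 65.2 FPKM (-0.50 ± 0.16, adjusted p = 0.0254), and here the highest adATF4 library lay above the lowest adGFP library. These last 2 calls were each lost when 1 of several libraries was left out, with an adjusted p up to 0.114 for Gata4 and 0.0810 for Mef2a. Nkx2-5 was 65.4, 52.6 and 33.8 FPKM with adGFP and 37.0, 36.1 and 30.6 FPKM with adATF4, which overlapped (-0.49 ± 0.20, adjusted p = 0.0636). Hand2, the most abundant member in these cells, was 157, 141 and 151 FPKM against 122, 119 and 143 FPKM (-0.23 ± 0.10, adjusted p = 0.0713).

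**Figure D5:**
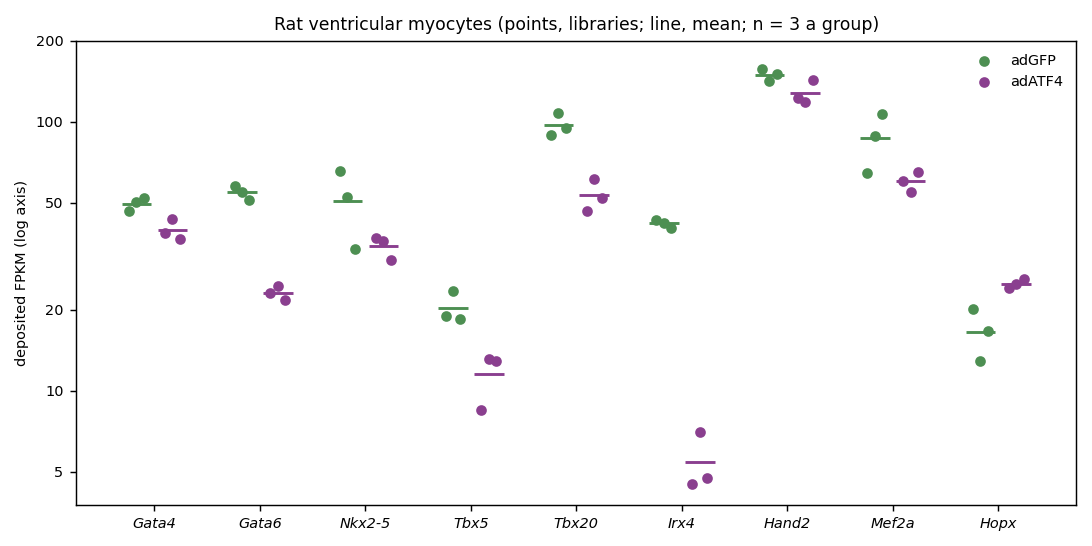
Deposited FPKM (log axis) of the 9 members measured in rat ventricular myocytes with adGFP or adATF4; points are libraries and lines means, n = 3 a group. The widest gaps are those of Irx4 (41.9 against 5.43 FPKM on average) and Gata6 (54.6 against 23.1 FPKM), and Hopx is the 1 gene with the adATF4 points on top.

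The counts of partners and targets in the same cells stand beside 50.6% of all genes called and 26.4% lower. Of 6 family relatives tested 5 fell, with Gata5 (-1.44 ± 0.16) beside the Irx genes. The other, Mef2b, passed the filter on low values through the adATF4 libraries alone, so that it had to differ, and its adGFP libraries were listed at 0 to 0.109 FPKM beside 3.61 to 7.28 FPKM in the adATF4 libraries. Of 15 cofactors 9 fell and 0 rose, the smallest adjusted p belonging to Meis1 (-1.04 ± 0.11), Yap1 (-0.69 ± 0.10), Tead1 (-0.70 ± 0.12) and Nfatc4 (-1.06 ± 0.18). Nfatc4 met the filter on low values through its adGFP libraries, at 2.44 to 3.29 FPKM. Its adATF4 libraries lay at 0.673 to 1.01 FPKM, so that the filter favoured a difference. Of 22 target genes 15 fell and 2 rose. Bmp10 (-2.41 ± 0.12), Pln (-1.88 ± 0.09), Atp2a2 (-1.64 ± 0.08), the calcium pump of the sarcoplasmic reticulum, and Mb (-2.32 ± 0.12), myoglobin, had the smallest adjusted p. Hdac5 (-0.53 ± 0.12) and Hdac9 (-0.56 ± 0.15) fell among 6 deacetylases and repressors, and the other 4 were not called. The medians were -1.32, -0.42, -0.98 and -0.22 for relatives, cofactors, targets and deacetylases, beside -0.04 for all genes.

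Over the 18 mouse libraries, which share the conditions and the scaling, the member most like Tbx5 in log2 CPM was Hopx (Pearson r = 0.88), and Tbx20 ran opposite to both (r = -0.77 with each). Among 9004 genes whose mean log2 CPM was at least 3, those most like Hopx were Osgepl1 (r = 0.97), Smim11 (0.97) and Vdac1 (0.97). Those most like Tbx5 were Ctsf (0.95), Aldh2 (0.94) and Selenbp1 (0.94), and those most like Tbx20 were Slc35f6 (0.97), Sorbs2 (0.96) and Arhgef7 (0.95). For Mef2a they were Slf1 (0.96), Epm2a (0.93) and Kansl1l (0.92), and for Mef2c Sema6d (0.93), Plxna4 (0.91) and Cd93 (0.90). The closest genes to Gata6 were Stk39 (0.93), Foxj2 (0.91) and Rnf166 (0.86), and to Gata4 Acbd3 (0.89), Agfg1 (0.89) and Zfp146 (0.88). Hand2 was closest to Ik (0.89), Agfg2 (0.85) and Otub1 (0.83), Nkx2-5 to Tmem161a (0.82), Sf3b5 (0.81) and Rrp1 (0.80), and Irx4 to Akirin1 (0.80), Prg4 (0.79) and Fam124a (0.78).

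The authors' deposited table, which gives 5 of these comparisons for the mouse hearts, lists Tbx5 at 0.72 (adjusted p = 0.00285) and Hand2 at 0.69 (adjusted p = 0.0472) for cKO against ctrl at TAC 3 d. For TAC against sham in ctrl hearts the authors' deposited table lists Tbx5 at -0.83 and Tbx20 at 0.55 after 3 days (adjusted p = 3.98e-06 and 0.00542). After 7 days the authors' deposited table lists Hopx at -0.98 (adjusted p = 4.47e-09) and Mef2c at 0.37 (adjusted p = 0.00525).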

How the data were processed

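Mouse hearts and rat myocytes were profiled by RNA-seq from total RNA with TruSeq RNA libraries, per the labels' protocols. For the mouse the authors deposited whole-number counts per Ensembl gene, FPKM and, for 5 comparisons, log2 fold changes with adjusted p-values from a test that is not stated. For the rat the authors deposited FPKM per gene symbol. Bowtie 0.12.2 and mm9 are named without a role in the submitters' processing notes, while the deposited positions are those of GRCm38. Neither the counter nor its use of strand is given in the sources used here. Date-like names stood in 26 rat rows, and 6 columns that matched no sample were not used.

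Counts were filtered with filterByExpr (15535 genes, 99.9% of counts), scaled by TMM and tested with edgeR 4.0.16 (quasi-likelihood, 1 model over 18 libraries) in R 4.3.3. Rat values were tested with limma 3.58.1, with a variance trend, on log2(FPKM + 1) for genes of at least 1 FPKM in at least 3 libraries. P-values were two-sided and adjusted by Benjamini-Hochberg within each comparison over all genes tested. SEs of the mouse log2 fold changes are the fold change over the root of edgeR's F. Alternatives were DESeq2 1.42.0, other scalings, no filter, only the groups compared, a replicate block, pseudocounts of 0.1 and 0.5, no trend, and leaving libraries out. Libraries within a group differed beyond sampling noise (chi-square per degree of freedom 7.09 to 147). Both tests were run on simulated data drawn with the same spread for a gene in every group. That check does not cover groups that differ in spread. The labels do not say that a replicate number pairs libraries, so numbers were not taken as pairs. Deviations of same-numbered libraries from their group means correlated at r from -0.39 to 0.24 in mouse. Differently numbered libraries were not set beside them, so this range cannot decide whether numbers are pairs.

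The members and gene lists were chosen with earlier results of these data known. The rule for names was all members, Atf4, up to 4 called genes per list and comparison with the smallest adjusted p, and for likeness the 3 genes of highest Pearson r. Some genes that the rule picks are counted in their lists but not reported here by name. Promoter sequences are RefSeq's. The overexpression heading on the mouse labels goes against their titles and was not used.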

Additional observations from a re-analysis of the deposited data

Results flagged for a closer look

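The change of the genotype difference (cKO minus ctrl) between TAC 3 d and TAC 7 d passed the edgeR test for 3 members, in a contrast added after the data were seen and in which 21.0% of all genes were called. For Hopx it was -1.418 ± 0.40 (adjusted p = 0.0213): the difference was 0.98 at 3 d and -0.43 at 7 d. For Tbx5 it was -0.731 ± 0.17 (adjusted p = 0.0111), from 0.73 at 3 d to 0.00 at 7 d. For Tbx20 it was 0.7307 ± 0.22 (adjusted p = 0.0304), from -0.37 to 0.37. Without the 3 libraries that stood apart Hopx was at -0.997 (adjusted p = 0.0169), Tbx20 at 0.71 (adjusted p = 0.0499) and Tbx5 at -0.59, not called (adjusted p = 0.0842). Fitted on only the groups compared, Hopx (0.0697) and Tbx20 (0.0741) lost their call, and both did so without any 1 of several libraries (adjusted p up to 0.0609 for Hopx and 0.0768 for Tbx20). Fibroblast markers (5 of 8 called, all upward) and leukocyte markers (6 of 7, all upward) moved in the same contrast, and their part in it was not tested.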

How the results depend on the processing

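Of 30 called results on members, 11 kept their call in every alternative run, 19 lost it in at least 1, and 0 changed sign. Those kept throughout were Irx4, Gata6, Tbx20, Tbx5 and Hopx in rat cells, Tbx5 in ctrl at TAC 3 d, Tbx5, Tbx20 and Hopx in cKO at TAC 7 d against sham, and Tbx20 and Hopx in cKO between the days. A further 19 uncalled results were called in some alternative. Fitted on only the groups compared, the members called were 0 for cKO against ctrl at TAC 3 d, 3 for TAC 3 d in ctrl and 1 for the change of the genotype difference. Over all genes these fits called 114 of 14660, 2333 of 14567 and 1316 of 15263. With plain library sizes the median log2 difference of all genes, -0.01 to 0.02 with TMM, was -0.20 for cKO against ctrl at TAC 3 d, 0.23 for TAC 3 d in ctrl, 0.14 for TAC 7 d in cKO, -0.17 and 0.17 between the days in ctrl and cKO, 0.10 for cKO against ctrl at TAC 7 d, -0.25 in the 3 d interaction and 0.31 in the change of the genotype difference. With them 2 members were higher and 2 lower (Tbx20, Mef2c) for cKO against ctrl at TAC 3 d, 7 were called for TAC 7 d in cKO, 3 were higher and 2 lower in cKO between the days, and 2 were higher and 1 lower in the change of the genotype difference. Of all 15535 genes 3447, 3295, 3098 and 4052 were called in these comparisons, in that order. With no filter on low counts 1 member (Hand2) was called for the mean over conditions, 1 (Hand2) for TAC 3 d in cKO and 3 (Tbx5, Hand2, Hopx) in the 3 d interaction, where DESeq2 called 1 (Tbx5). Of all 30584 genes 810, 219 and 1597 were called without the filter, in that order. DESeq2 called 874 of 15535 in the 3 d interaction. Without the 3 libraries that stood apart 2 members, and 2138 of 15703 genes, were called in cKO between the days. Leaving out 1 library at a time gave 1 to 4 members for cKO against ctrl at TAC 3 d, 0 to 1 for the mean over conditions, 3 to 5 for TAC 3 d in ctrl, 0 to 3 for TAC 7 d in ctrl, 0 to 1 and 2 to 6 between the days in ctrl and cKO, 0 to 1 in the 3 d interaction, 1 to 4 in the change of the genotype difference and 5 to 7 in rat cells. The same runs tested 15807 to 15982 mouse genes. They called 953 to 3853 for cKO against ctrl at TAC 3 d and 72 to 337 for the mean. They called 2310 to 4936 for TAC 3 d and 87 to 883 for TAC 7 d in ctrl. Between the days they called 523 to 3132 in ctrl and 1245 to 2871 in cKO. In the 3 d interaction they called 0 to 1363, in the change of the genotype difference 1758 to 4465. In rat cells they called 4167 to 5315 of 10303 to 10372. The lowest counts of members came without replicate 2 of cKO TAC 3 d for cKO against ctrl at TAC 3 d, without replicate 1 of ctrl sham or of ctrl TAC 3 d for TAC 3 d in ctrl, and without replicate 1 of ctrl sham or of ctrl TAC 7 d for TAC 7 d in ctrl. They came without replicate 1 of cKO TAC 3 d or replicate 2 of cKO TAC 7 d between the days in cKO, and without replicate 2 or 3 of ctrl TAC 7 d or replicate 2 of cKO TAC 7 d in the change of the genotype difference. The cause of these changes was not tested. With the replicate number as a block the members called were 2 for TAC 7 d in ctrl, where Hopx and Mef2c lost their call, 5 in cKO between the days, 8 in rat cells, where Nkx2-5 was also called (adjusted p = 0.0138), and as without it in the other comparisons. Of all genes the block gave 1019 of 15535 for TAC 7 d in ctrl, 2807 in cKO between the days and 5564 of 10571 in rat cells. Same-numbered libraries correlated at -0.39 to 0.24 in mouse and -0.06 to 0.22 in rat.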
